A study of Mus musculus with 57 samples.

Results

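The 34 genes described here belong to oligodendrocytes, the cells that wrap axons of the brain and spinal cord in myelin. They were chosen by gene symbol, with earlier results of these data known. Each was matched once by its Ensembl identifier among the 18088 genes of the deposited table. By role, 3 mark early differentiation (Enpp6, Bcas1 and Nkx2-2), 5 encode transcription factors of the lineage (Sox10, Olig1, Olig2, Nkx6-2 and Myrf) and 26 belong to mature myelin-forming cells. All 34 passed the filter on low values and were tested.

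Poly(A) RNA was sequenced from prefrontal cortex taken on postnatal day 25 from C57BL/6J mice. Shank3, which encodes a scaffold protein of excitatory synapses, was either intact on both copies (wild type, WT) or carried delta C on 1 copy (HT). For 3 weeks, from postnatal day 3 to 24, the pups got their treatment through maternal milk: vehicle, lithium (used to stabilise mood) or fluoxetine, which blocks the reuptake of serotonin. Genotype, drug and sex gave 12 groups. The groups of WT mice were vehicle females, vehicle males, fluoxetine females, fluoxetine males and lithium males with 5 libraries each, and lithium females with 4. The groups of HT mice were vehicle females, fluoxetine females, fluoxetine males and lithium females with 5 libraries each, lithium males with 4 and vehicle males with 3. The 56 libraries held 22984556 to 35969254 reads over the listed genes. No label ties a mouse to a litter. Each mouse was therefore taken as independent in the tests, and any effect of a shared dam is not separated from that of the drug.

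Oligodendrocytes arise from progenitors that stop dividing, pass through a short premyelinating stage and then wrap axons. Olig2, Olig1, Nkx2-2 and Sox10 set up the lineage, and Myrf switches on the genes of the myelin sheath once a cell has left the cell cycle. In the mouse cortex myelination begins after birth and goes on into adulthood.

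Shank3 lay between 6022 and 8496 normalised counts in the 10 WT vehicle libraries and between 5748 and 8248 in the 8 HT vehicle libraries, and the labels do not say whether the altered part of the gene is counted. A normalised count is the deposited value, a gene's count divided by the size factor of its library. Of the Schwann cell markers, which would mark peripheral nerve, Prx lay between 10.4 and 40.3 and Egr2 between 70.2 and 653, and others were not analysed here. Markers of neighbouring regions differed between libraries of a group: the summed level of 5 olfactory bulb markers ran from 250 to 14785 in WT fluoxetine females. HT vehicle female replicate 1 reached 53195 in 6 choroid plexus markers, against at most 360 in the libraries of the other 11 groups. HT lithium female replicate 5 had the lowest share of its values in 15 mitochondrially encoded genes, 2.7%, with 5.15% in the next library. No pair of libraries of a group agreed within sampling noise.

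Levels between genes were compared per kilobase of the longest annotated transcript, as the mean normalised count per kilobase over the 10 WT vehicle libraries. Mbp, which compacts the cytoplasmic faces of the sheath, stood highest with 15162 ± 4137 per kilobase (SD, n = 10). Mobp, another protein of compact myelin, followed with 5626 ± 1554 per kilobase. Neither interval of mean ± SD overlapped that of the next member. Cnp, a cyclic nucleotide phosphodiesterase of non-compact myelin, had 3023 ± 771 per kilobase. Mal, a proteolipid of lipid rafts, had 2235 ± 573 per kilobase and Cldn11, the claudin of myelin tight junctions, 2053 ± 618. From Cnp down to Car2, a carbonic anhydrase that other cells also make, with 1597 ± 132 per kilobase, the intervals of neighbours overlapped. The transcription factors ran from Olig1 with 1227 ± 207 per kilobase to Nkx6-2 with 82 ± 23.2. Mog, the outermost glycoprotein of the sheath, had 1048 ± 249 per kilobase. Nkx2-2 had the lowest mean of the 34 with 48.7 ± 10.6 per kilobase, and its interval overlapped that of Aspa, the enzyme that splits N-acetylaspartate, with 66.4 ± 14.

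Levels of the members varied together from mouse to mouse within a group. For each list a score was computed per library as the mean over its genes of the log2 level minus the gene's mean over the 56 libraries. Taken as deviations from the group means, the scores of the transcription factors and of the mature genes had a Pearson r of 0.90 over 56 libraries, and those of the early and the mature genes an r of 0.63. Single genes lay between 0.98 for Mobp and 0.32 for Car2. Of the 3 early genes, Bcas1 had 0.66, Enpp6 0.60 and Nkx2-2 0.39 with the mature score. Olig2, which progenitors express as well, had 0.50, against 0.90 for Myrf. These correlations are descriptions over libraries that share size factors and dissection. A mature gene was left out of the mature score it was compared with. Since the members varied together, a sign they share in a comparison is not 34 separate observations.

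Among the 10 tested genes outside the 34 whose levels were most like the mature score over the 56 libraries were Adamts4 (r = 0.93), Prr18 (0.92), Tmem88b (0.91), Sec14l5 (0.89), Plxnb3 (0.89), Sept4 (0.88), Cdc42ep2 (0.87) and Unc5b (0.87). Adamts4 stood on the list of other mature myelin genes. The score of 8 oligodendrocyte progenitor markers had r = 0.35 with the mature score, that of 8 astrocyte markers 0.01, of 7 microglial markers -0.17 and of 8 neuronal markers -0.39. The log2 number of reads had r = 0.05. The slope of a library's log2 values with GC content had r = 0.48 and the striatal marker score 0.43, and both were followed up in alternative fits given with the results.

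The sequences at their start sites were searched for motifs of lineage factors. RefSeq (GRCm38.p6) gave windows of 300 bases, 250 before to 50 after a start site, for 25 of the 34 genes. The core bound by MYRF, CTGGCAC, was found on at least 1 strand in 6 of these 25 genes (24%: Mag, Cnp, Opalin, Hapln2, Tmem125 and Gamt) and in 5.73% of 27025 genes with a window. Its other form, CTGGTAC, was found in Mog alone (4%), against 2.6% of all genes. The SOX cores AACAAAG and AACAATG were each found in 2 of the 25 (8%), against 6.68% and 4.33% of all genes, and the E-box CAGCTG in 4 (16%) against 18.3%. A match describes these letters and not binding. The 5 matches that lie before the start site are shown with 20 bases on each side, 5′ to 3′ on the gene's strand, with the match in capitals (GTGCCAG and GTACCAG are the cores read on the other strand).
Mag, chr7:30914905-30914951: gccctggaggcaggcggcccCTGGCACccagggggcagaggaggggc
Cnp, chr11:100574838-100574884: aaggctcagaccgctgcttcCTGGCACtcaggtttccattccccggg
Hapln2, chr3:88027629-88027675: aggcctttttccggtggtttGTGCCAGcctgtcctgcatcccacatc
Gamt, chr10:80261149-80261195: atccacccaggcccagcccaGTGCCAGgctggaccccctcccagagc
Mog, chr17:37023455-37023501: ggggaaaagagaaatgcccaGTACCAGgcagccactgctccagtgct
In Mag and Cnp the core lies on the strand of the gene, and in the other 3 on the opposite strand. In Tmem125 and Opalin the match began 1 and 37 bases into the transcript.

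**Figure D1:**
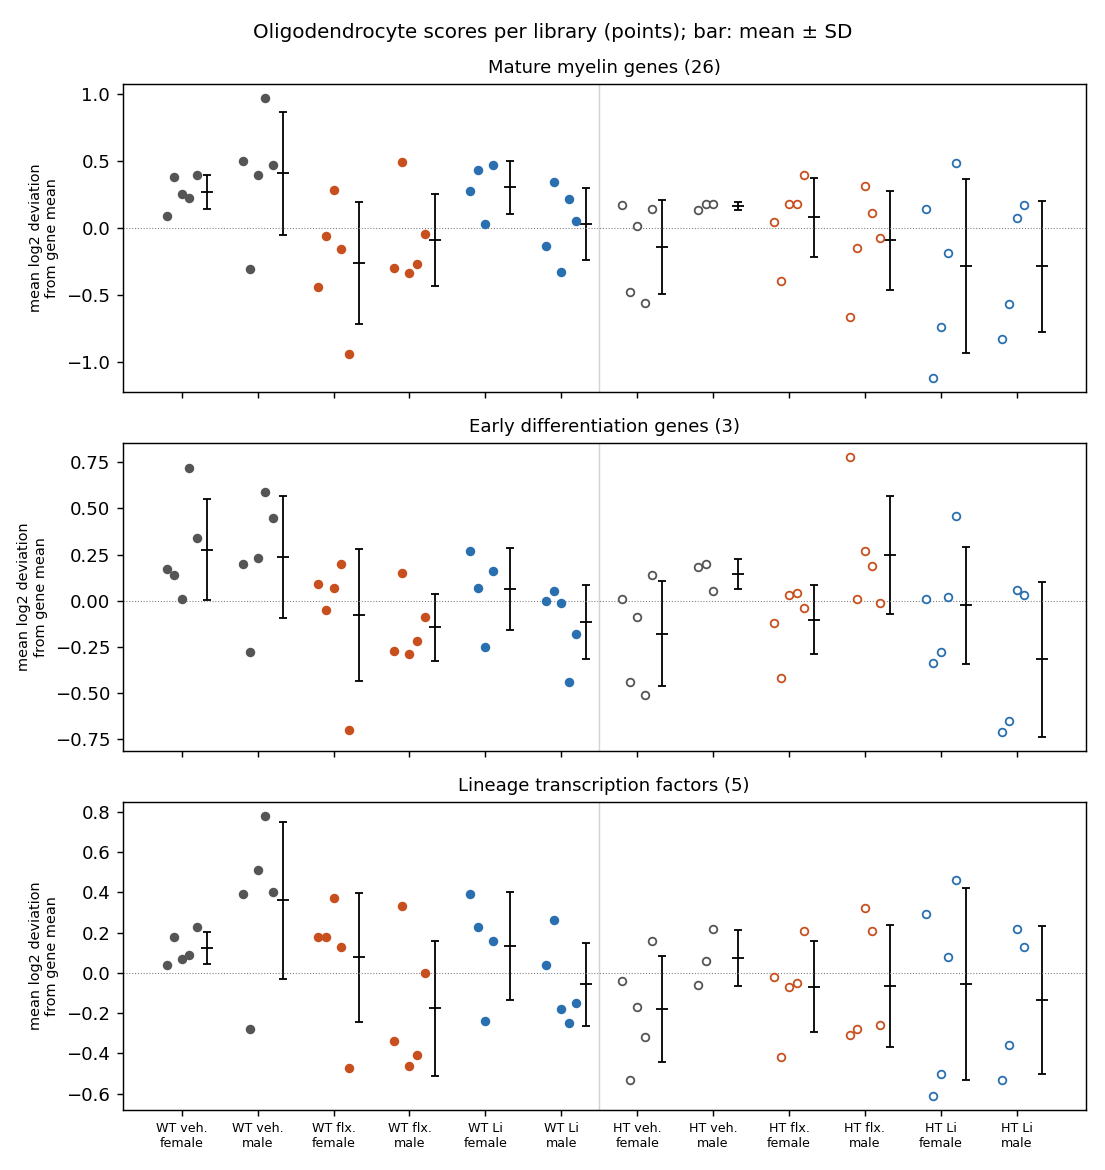
Scores of the 26 mature, 3 early and 5 transcription factor genes (vertical axes, mean log2 deviation from the gene means) in each of the 56 libraries (points), by group along the horizontal axis, with bars for the mean ± SD. WT vehicle male replicate 4 has the highest mature score, 0.97, and HT lithium female replicate 2 the lowest, -1.12.

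Single mice spanned more than the group means did. The mature score averaged 0.40 ± 0.46 (SD, n = 5) in the vehicle males of WT, 0.30 ± 0.20 (n = 4) in their lithium females and 0.26 ± 0.13 (n = 5) in their vehicle females. HT vehicle males followed with 0.16 ± 0.03 (SD, n = 3), HT fluoxetine females with 0.08 ± 0.29 (n = 5) and WT lithium males with 0.03 ± 0.27 (n = 5). All vehicle and lithium groups of WT thus had a mean above 0. WT fluoxetine males had -0.09 ± 0.34, HT fluoxetine males -0.10 ± 0.37 and HT vehicle females -0.14 ± 0.35 (SD, n = 5 each). The lowest 3 groups were WT fluoxetine females with -0.26 ± 0.45 (SD, n = 5), HT lithium females with -0.29 ± 0.65 (SD, n = 5) and HT lithium males with -0.29 ± 0.49 (SD, n = 4). No neighbours in this order differed beyond their spread. WT vehicle male replicate 4 was the highest of the 56 libraries in 24 of the 34 members, and HT lithium female replicate 2 the lowest in 14. WT fluoxetine female replicate 5 was the lowest in 9. In Ppp1r14a, an inhibitor of protein phosphatase 1, the highest library was 9.38 times the lowest, and in Car2 1.72 times.

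Under fluoxetine a large share of the mature myelin genes fell in WT mice. With the sexes averaged, 12 of the 34 members fell and 0 rose against vehicle, 11 of them among the 26 mature genes and 1 among the 3 early genes (limma-trend, Benjamini-Hochberg adjusted p below 0.05 over 18026 genes). Over all tested genes 5.18% were called in this comparison, 1.99% as lower. The median log2 change was -0.51 over the 26 mature genes, -0.35 over the 3 early genes and -0.23 over the 5 transcription factors, beside -0.007 over all genes. All 34 estimates were negative, and 22 had an unadjusted p under 0.05, beside 3541 of the 18026 tested genes. Since the RNA is from whole tissue, 3 readings cannot be told apart here or in any result below. They are fewer oligodendrocytes, less RNA per oligodendrocyte, and a difference in the tissue taken at dissection.

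Of the 12 genes for proteins of the myelin membrane, its adhesion and its junctions, 6 fell. Tspan2 (ENSMUSG00000027858, chromosome 3, 102734529 to 102801513, GRCm38), a tetraspanin of oligodendrocytes, had normalised counts of 3728, 4316, 3878, 4007 and 4595 in WT vehicle females and 1961, 1984, 2710, 1936 and 1386 in WT fluoxetine females. In males it had 3716, 2551, 3492, 4788 and 4100 under vehicle and 3105, 4082, 2339, 2397 and 2531 under fluoxetine. The female groups did not overlap, and in males 3 of the 5 treated mice lay below every vehicle mouse. Its log2 change was -0.72 ± 0.14 (SE), adjusted p = 0.00145 in limma.

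Pllp (chromosome 8, 94674894 to 94696278), plasmolipin, a proteolipid of the sheath, had 1018, 1008, 1257, 1109 and 1272 normalised counts in WT vehicle females and 1076, 809, 1035, 755 and 637 in WT fluoxetine females. In WT males it had 1127, 919, 1389, 1789 and 1184 under vehicle and 705, 1027, 592, 755 and 844 under fluoxetine. Every one of the 10 treated mice lay below the vehicle median of 1156, and 7 lay below the lowest vehicle library. The log2 change of Pllp was -0.55 ± 0.12, adjusted p = 0.00316 in limma.

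Mog (chromosome 17, 37010743 to 37023398), whose promoter stretch is shown above, had 1533, 1916, 1729, 1427 and 1833 normalised counts in WT vehicle females and 769, 1100, 1390, 892 and 543 in WT fluoxetine females. In WT males the values were 1927, 1099, 1743, 2734 and 1911 under vehicle and 1078, 1712, 886, 1114 and 1269 under fluoxetine. The female groups were separate and the male groups overlapped. Mog had a log2 change of -0.76 ± 0.20, adjusted p = 0.017 in limma.

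Opalin (chromosome 19, 41061710 to 41077113), a glycoprotein found on mature oligodendrocytes, had 297, 363, 544, 367 and 490 normalised counts in WT vehicle females against 128, 210, 413, 196 and 131 under fluoxetine. In WT males it had 401, 327, 543, 615 and 472 under vehicle against 305, 493, 210, 328 and 298. In females all treated mice but replicate 3 lay below every vehicle mouse, and in males 3 of the 5 did. Opalin's log2 change was -0.79 ± 0.21, adjusted p = 0.0186 in limma.

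Mbp ran from 37446 through a median of 71597 to 116779 normalised counts over the 10 WT vehicle libraries, and from 24323 through 45211 to 74837 over the 10 WT fluoxetine libraries. The ranges overlapped widely, with 9 of 10 treated mice below the vehicle median, and the log2 change was -0.65 ± 0.20, adjusted p = 0.0429 in limma. Mal ran from 3233 through 6129 to 8723 under vehicle and from 1877 through 3766 to 7321 under fluoxetine, a log2 change of -0.67 ± 0.20, adjusted p = 0.0428. Mobp had a similar estimate, -0.62 ± 0.23, that did not pass the threshold (adjusted p = 0.103), and neither did Mag, the adhesion molecule facing the axon, with -0.49 ± 0.23, adjusted p = 0.216. Cldn11, Gjb1 (a connexin), Hapln2 (a link protein of the nodes of Ranvier) and Tmem125 lay between -0.50 and -0.37.

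**Figure D2:**
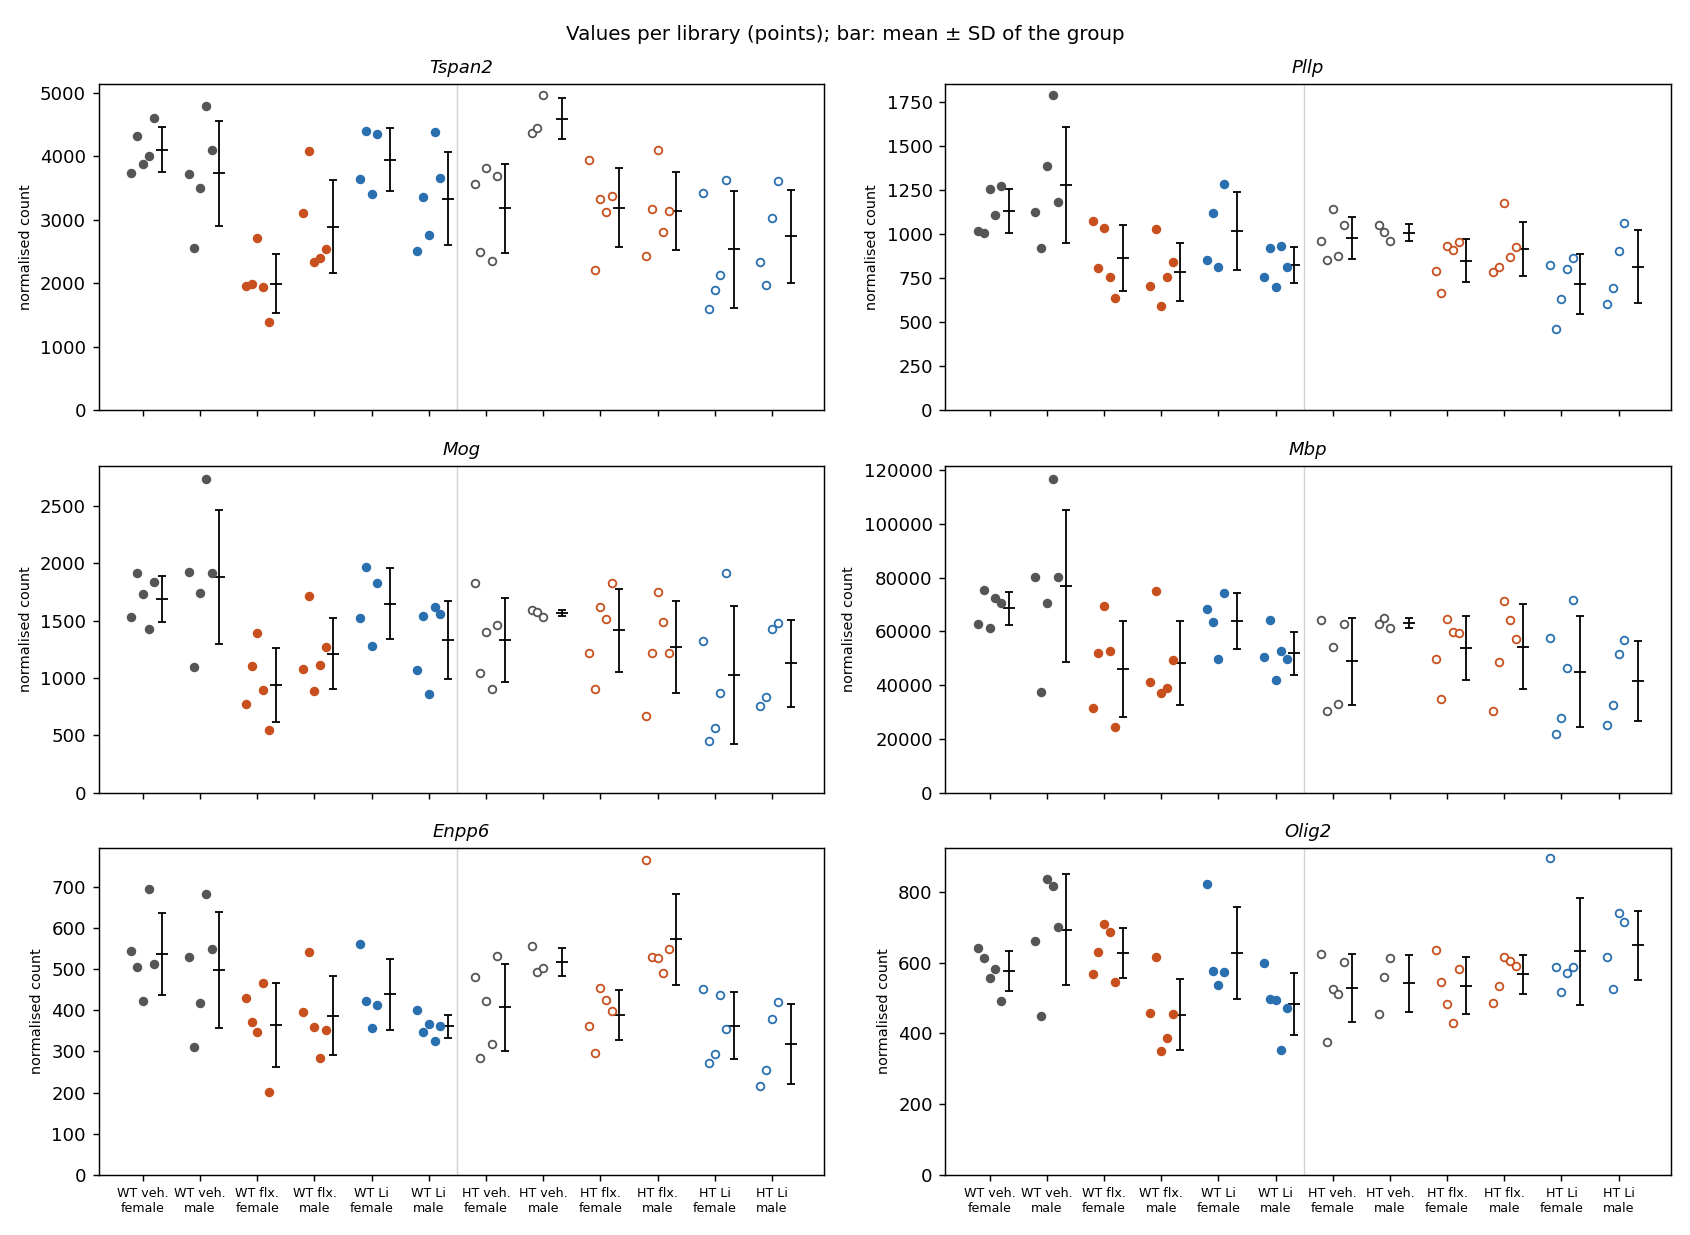
Normalised counts (vertical axes, from 0) of Tspan2, Pllp, Mog, Mbp, Enpp6 and Olig2 in each library (points) by group, with bars for the mean ± SD; filled points are WT and open points HT. The 5 WT fluoxetine females lie between 1386 and 2710 for Tspan2, all below the WT vehicle females, while Olig2 in the same 5 mice lies between 547 and 709, within and above the range of the vehicle females.

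Of the 8 genes for cytoskeletal, cytoplasmic and other proteins of mature cells, 3 fell. Ermn, an actin-binding protein of oligodendrocytes, ran from 525 through 982 to 1490 normalised counts in the 10 WT vehicle libraries and from 302 through 630 to 1293 in the 10 WT fluoxetine libraries, with a log2 change of -0.70 ± 0.20, adjusted p = 0.0273 in limma. Gpr37, a G protein-coupled receptor, ran from 640 through 879 to 1270 under vehicle and from 408 through 552 to 1107 under fluoxetine, and 8 of the 10 treated mice lay below the lowest vehicle library. Its log2 change was -0.56 ± 0.14, adjusted p = 0.0137. Ppp1r14a, the member with the lowest estimate, ran from 89.7 through 122 to 246 under vehicle and from 34.8 through 68 to 123 under fluoxetine, a log2 change of -0.90 ± 0.25, adjusted p = 0.0282. At the other end Ndrg1 had -0.01 ± 0.13, adjusted p = 0.97, the estimate nearest 0 of the 34. Cnp had -0.52 ± 0.18, adjusted p = 0.0809, and Gsn, which severs actin filaments, -0.35 ± 0.18.

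Of the 6 genes of lipid synthesis, metabolism and iron supply, the pair that builds the typical myelin lipids fell. Ugt8a, the transferase that makes galactosylceramide, ran from 1384 through 2507 to 3496 normalised counts under vehicle and from 951 through 1576 to 2782 under fluoxetine, with a log2 change of -0.69 ± 0.17, adjusted p = 0.0134 in limma. Fa2h, which hydroxylates the fatty acids of these lipids, ran from 571 through 1018 to 1656 and from 265 through 600 to 973, and all 10 treated mice lay below the vehicle median. The log2 change of Fa2h was -0.74 ± 0.22, adjusted p = 0.0356. Trf, the iron carrier transferrin, had -0.39 ± 0.20, Aspa -0.45 ± 0.16, Gamt, an enzyme of creatine synthesis, -0.25 ± 0.16 and Car2 -0.15 ± 0.07, and none of these passed the threshold.

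Of the early genes, Enpp6, a choline phosphodiesterase that marks cells about to myelinate, fell. It had 544, 506, 422, 696 and 513 normalised counts in WT vehicle females and 430, 372, 348, 467 and 202 under fluoxetine. In WT males it had 530, 311, 417, 684 and 548 under vehicle and 397, 542, 359, 285 and 352 under fluoxetine. Both pairs of groups overlapped, and Enpp6 had a log2 change of -0.47 ± 0.14, adjusted p = 0.0397 in limma. Bcas1, a marker of early myelinating cells, had -0.35 ± 0.13, adjusted p = 0.108, and Nkx2-2 had -0.29 ± 0.16, adjusted p = 0.297. None of the 5 transcription factors was called with the sexes averaged: Nkx6-2 had -0.65 ± 0.25, Olig2 -0.24 ± 0.11, Olig1 -0.23 ± 0.11, Myrf -0.19 ± 0.18 and Sox10 -0.14 ± 0.13.

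Among genes outside the 34, 4 of 29 other mature myelin genes fell, with a median log2 change of -0.19, among them Evi2a (-0.62 ± 0.12, adjusted p = 0.00183 in limma), Prr5l (-0.59 ± 0.15) and Efhd1 (-0.37 ± 0.10). None of the 11 other early genes was called by limma (median -0.01), 3 of them having an unadjusted p under 0.05. None of the 8 progenitor markers was called either (median 0.01), with 1 at an unadjusted p under 0.05. Of 7 microglial markers 1 fell, with a median of -0.17 over the list. The summed level of these 7 ran from 8557 to 10412 in WT vehicle females, 6503 to 9575 in WT fluoxetine females, 9023 to 11004 in WT vehicle males and 8201 to 10387 in WT fluoxetine males, and none was at 0 in every library. The slope of log2 values per 10 percentage points of GC averaged -0.0644 ± 0.0788 (SD, n = 5) in WT vehicle females, 0.0942 ± 0.0637 in WT fluoxetine females, 0.0646 ± 0.0557 in WT vehicle males and -0.045 ± 0.112 in WT fluoxetine males. The summed olfactory markers ran from 360 to 7634 and from 250 to 14785 in WT vehicle and fluoxetine females, and from 1422 to 8023 and from 276 to 5620 in the males. With the striatal and olfactory scores as covariates 14 members were called as lower, where 8.08% of all genes were. The part of microglial markers in the fall of the members was not tested. With the GC and length trends of each library removed, 9 members were called as lower, where 0.854% of all genes were, Tspan2, Pllp, Mog, Opalin, Gpr37 and Ugt8a among them.

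Those 6 genes were called in all 10 alternative fits and in all 20 that left out 1 library, Opalin with an adjusted p of up to 0.0498. The number of members called was 7 with only the compared groups in the fit (0.766% of all genes called as lower), 7 without WT fluoxetine male replicate 3 or without male replicate 4, and 6 without WT vehicle male replicate 4, the library highest in most members. The other 6 called genes were less stable. With 1 library left out, Mal lost its call in 16 of the 20 fits (adjusted p up to 0.0868), Mbp in 15 (0.0914), Fa2h in 10 (0.0759), Enpp6 in 10 (0.0868), Ppp1r14a in 4 (0.0706) and Ermn in 2 (0.062). Mal lost its call with edgeR. With only the compared groups in the fit Mbp, Mal, Fa2h, Ermn and Enpp6 lost theirs, and after the GC and length correction Mal, Ermn and Enpp6 did. Enpp6, the 1 early gene called, reached an adjusted p of 0.113 in these fits.

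**Figure D3:**
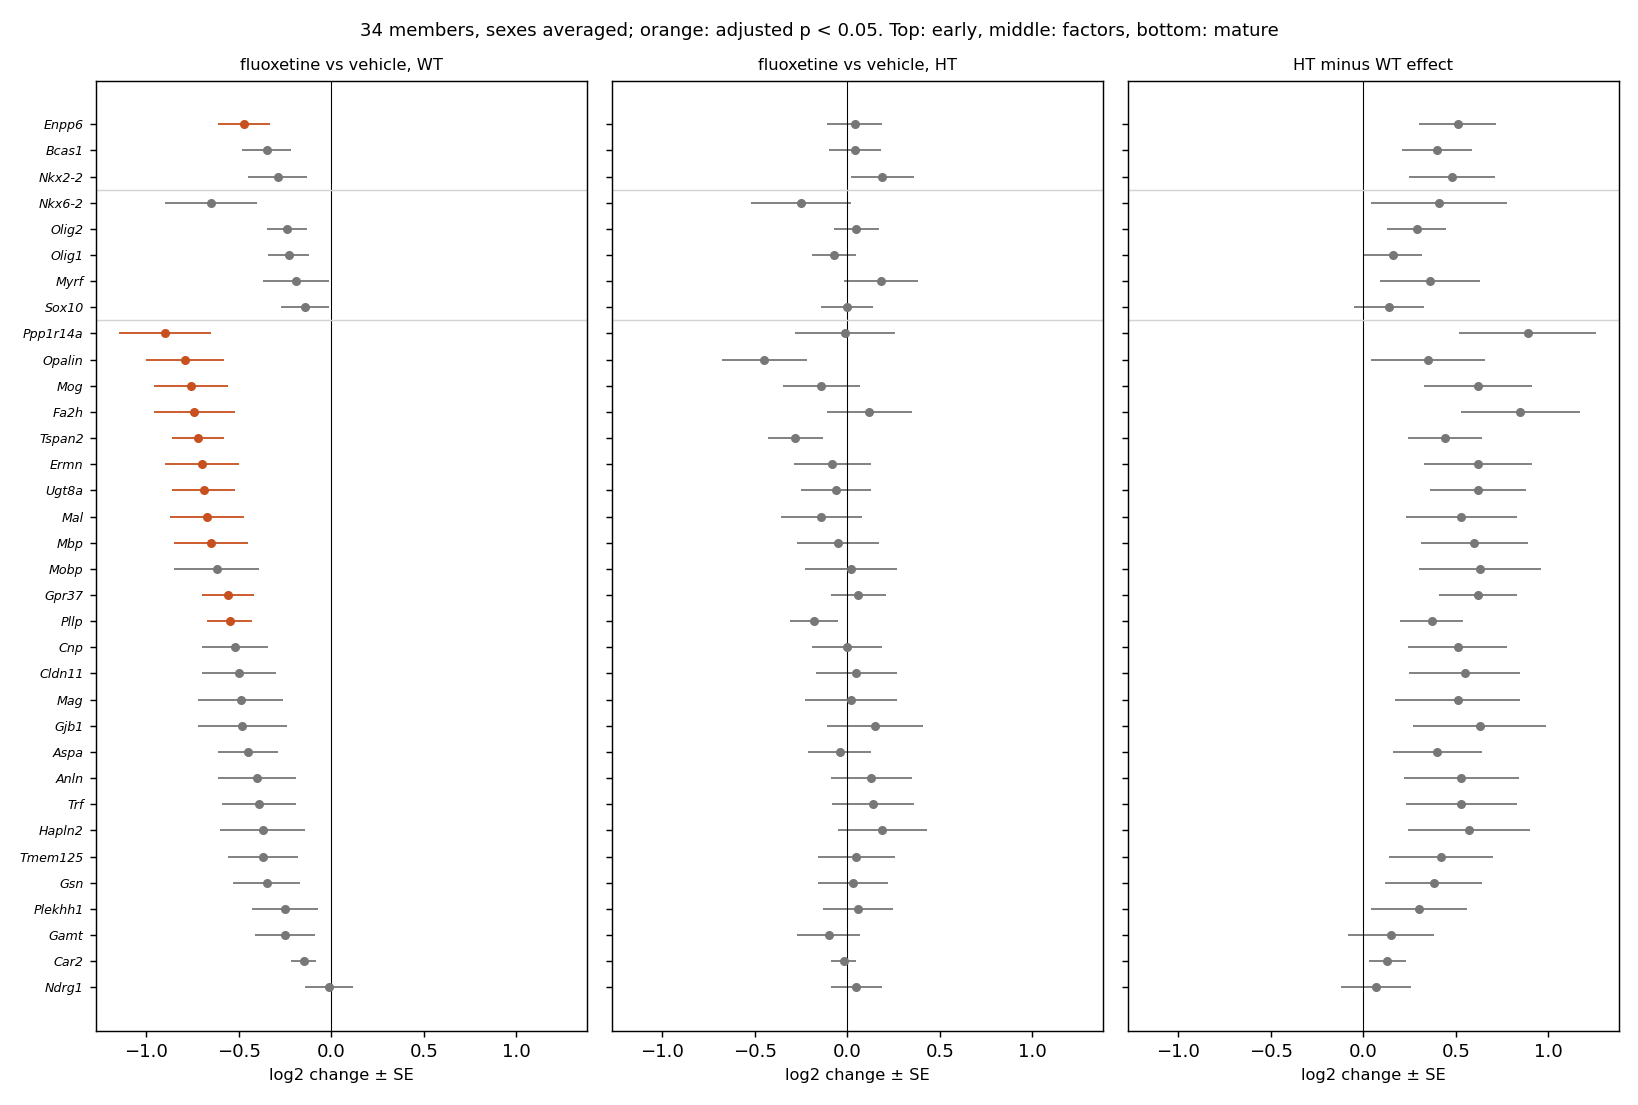
Log2 change ± SE (horizontal axes) of each of the 34 members under fluoxetine against vehicle in WT (left) and HT (middle), and the HT effect minus the WT effect (right), with the sexes averaged and called members in orange. The WT estimates lie at or left of 0 from -0.90 to -0.01, the HT estimates on both sides of it from -0.45 to 0.19, and 0 of the differences are called.

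In HT mice the same drug left the members on both sides of 0. None of the 34 was called by limma or by edgeR under fluoxetine against vehicle, and 0% of all tested genes were. An unadjusted p under 0.05 was reached by 0 members and by 1307 of the 18026 tested genes. The median log2 change was 0.02, with 19 members positive and 15 negative. Tspan2 had 3559, 2487, 3816, 2356 and 3683 normalised counts in HT vehicle females and 3938, 2208, 3324, 3116 and 3370 in HT fluoxetine females. In HT males it had 4366, 4443 and 4964 under vehicle and 2436, 3176, 4094, 2814 and 3135 under fluoxetine. The female groups overlapped fully, and all 5 treated males lay below the 3 vehicle males. Averaged over the sexes the log2 change of Tspan2 was -0.28 ± 0.15, adjusted p = 0.73. The 3 members with the smallest p were Opalin (-0.45 ± 0.23), Tspan2 and Pllp (-0.18 ± 0.13, adjusted p = 0.846).

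The difference between the fluoxetine effects of the genotypes was positive in all 34 members, with a median of 0.50. The members varied together, so the shared sign does not count as 34 separate observations. An unadjusted p under 0.05 was reached by 12 members and by 634 of the 18026 tested genes. No member was called by limma or edgeR, and 0% of all tested genes were. Gpr37 had the smallest p, with a difference of 0.62 (95% confidence interval 0.20 to 1.04), adjusted p = 1. For Tspan2 it was 0.44 (0.03 to 0.85) and for Pllp 0.37 (0.03 to 0.72), each at adjusted p = 1. The effects thus were not shown to differ between the genotypes. The intervals of Tspan2 and Pllp began near 0 and that of Gpr37 at 0.20. Each ended above the size of the gene's WT effect. Between HT and WT mice under vehicle, the median log2 difference over the members was -0.31. Set directly against each other under fluoxetine, HT and WT mice had a median log2 difference of 0.12 over the members, which was 0.06 without WT fluoxetine female replicate 5 and 0.2 without WT fluoxetine male replicate 2. None was called by limma or edgeR (0% of all genes), and 4 had an unadjusted p under 0.05, beside 2023 of the 18026 tested genes. Tspan2 had 0.41 ± 0.14, adjusted p = 0.304, and Enpp6 0.35 ± 0.14, adjusted p = 0.361.

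Within a sex, 0 members were called by limma or edgeR under fluoxetine in HT females (0.727% of all genes) or HT males (0%), with member medians of 0.23 and -0.23. An unadjusted p under 0.05 was reached by 1 and 2 members, and by 2035 and 644 of the 18026 tested genes. Within WT females, 8 members fell under fluoxetine and 0 rose, where 12.1% of all genes were called and 6.48% as lower. The 4 with the smallest p were Tspan2 (-1.07 ± 0.20, adjusted p = 0.000399 in limma), Ermn (-1.11 ± 0.28), Ugt8a (-0.88 ± 0.25) and Mal (-1.02 ± 0.29). The other 4 were Opalin, Mog, Gpr37 and Enpp6. Tspan2 alone kept its call with only the compared groups in the fit and with GC and length corrected. Within WT males 2 fell, where 1.03% of all genes were called and 0.394% as lower: Pllp with -0.70 ± 0.17, adjusted p = 0.0257, and Olig2 with -0.60 ± 0.16, adjusted p = 0.0386. The members' median was -0.45 in females and -0.52 in males. The female count was 5 without fluoxetine female replicate 1 or 5 or vehicle female replicate 2 or 3. The male count was 0 with only the compared groups or without fluoxetine male replicate 1 or 3 or vehicle male replicate 3, 4 or 5, 1 without fluoxetine male replicate 4, and 4 without fluoxetine male replicate 5 or vehicle male replicate 2.

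Olig2, the basic helix-loop-helix factor that specifies the lineage, was the 1 member called in the difference of the fluoxetine effects of WT males and females, where 7.74% of all genes were called and 3.16% as lower. A call in 1 of 34 members does not exceed that share, so Olig2 is given as the values of a single gene. It had 641, 613, 557, 581 and 493 normalised counts in WT vehicle females and 568, 631, 709, 687 and 547 in WT fluoxetine females. In WT males it had 663, 448, 838, 818 and 702 under vehicle and 457, 616, 351, 388 and 456 under fluoxetine. The female groups overlapped, and 3 of the 5 treated males lay above the lowest vehicle male. The log2 change was 0.12 ± 0.16 in females and -0.60 ± 0.16 in males, a difference (male minus female) of -0.72 ± 0.22, adjusted p = 0.0349 in limma. Olig2 lost this call with only the compared groups in the fit (adjusted p = 0.071), where Gamt was the 1 member called instead, after the GC and length correction (-0.47, adjusted p = 0.28) and in 10 of the 20 fits that left out a library. Sox10 had a difference of -0.75 ± 0.26, adjusted p = 0.0642, and Olig1 of -0.60 ± 0.22, adjusted p = 0.0742. The number of members called in this difference was 0 without fluoxetine female replicate 2 or 4, fluoxetine male replicate 1, 3 or 4, vehicle female replicate 3 or 5, or vehicle male replicate 3, 4 or 5. It was 2 without fluoxetine female replicate 3 or male replicate 2 and 4 without fluoxetine female replicate 5 or vehicle male replicate 2.

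Under lithium fewer members were called. In WT mice 2 of the 34 fell and 0 rose, where 11.7% of all genes were called and 4.65% as lower. The share of the members that fell was thus near that of all genes, and the 2 are given as values of single genes. The comparison shares its vehicle libraries with that of fluoxetine. Pllp had 853, 1118, 816 and 1286 normalised counts in WT lithium females and 759, 924, 702, 934 and 814 in WT lithium males, beside 1008 to 1272 in WT vehicle females and 919 to 1789 in WT vehicle males. The females overlapped, and 3 of the 5 treated males lay below every vehicle male. The log2 change of Pllp was -0.39 ± 0.12, adjusted p = 0.0273 in limma. Ppp1r14a had 80.6, 122, 54.2 and 66.6 in WT lithium females and 73.9, 106, 36.5, 76.3 and 69 in WT lithium males, against 89.7 to 184 and 98.5 to 246 under vehicle, and 7 of the 9 treated mice lay below the lowest vehicle library. Its log2 change was -0.81 ± 0.26, adjusted p = 0.0348.

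The median over all 34 under lithium in WT was -0.19, beside -0.003 over all genes, with 28 negative and 6 positive. The 3 early genes had a median of -0.35 and 0 called, Bcas1 with -0.38 ± 0.14, adjusted p = 0.0596 in limma. Tspan2, which fluoxetine lowered, had -0.11 ± 0.14, adjusted p = 0.69, and Ndrg1 had 0.28 ± 0.14, adjusted p = 0.173, the highest of the 34. Of the other oligodendrocyte genes, Rras2 (1 of 11 early genes) and Evi2a and Prr5l (2 of 29 mature genes) fell, as did 2 of 7 microglial markers, Cx3cr1 among them, and Cldn5 and Pdgfrb of 8 vascular markers, while Fgfr3 of 8 astrocyte markers rose. Summed microglial levels ran from 8576 to 9895 in WT lithium females and 7743 to 8980 in WT lithium males, whose vehicle ranges are given above, and their part in the change of the members was not tested. The count of called members was 0 without WT lithium female replicate 3, WT vehicle female replicate 3 or WT vehicle male replicate 4, 1 without WT lithium female replicate 1 or 4, WT lithium male replicate 3, WT vehicle female replicate 5 or WT vehicle male replicate 3, and 4 without WT vehicle male replicate 2. With the striatal and olfactory marker scores as covariates it was 6, where 7.72% of all genes were called as lower, and the median over the members was -0.3. Of the 19 fits that left out a library, Pllp lost its call in 5 (adjusted p up to 0.0742) and Ppp1r14a in 6 (up to 0.0816).

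In HT mice 2 members fell and 0 rose under lithium, where 9.77% of all genes were called and 4.7% as lower. Here too the share of the members that fell was near that of all genes, and the 2 are given as values of single genes. Tspan2 had 3414, 1596, 1888, 2133 and 3629 normalised counts in HT lithium females and 2334, 1979, 3030 and 3612 in HT lithium males, beside the HT vehicle values given above. The females overlapped, and all 4 treated males lay below the 3 vehicle males. The log2 change of Tspan2 was -0.58 ± 0.15, adjusted p = 0.0112 in limma. Pllp had 827, 461, 632, 805 and 867 in HT lithium females against 959, 855, 1146, 878 and 1054 under vehicle, and 605, 696, 902 and 1062 in HT lithium males against 1053, 1014 and 962. In each sex all but 1 of the treated mice lay below every vehicle mouse, and the log2 change of Pllp was -0.41 ± 0.13, adjusted p = 0.0362.

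The median over the 34 members under lithium in HT was -0.26, with 31 negative. It was -0.29 over the mature genes, all 26 negative, and 0 over the transcription factors. Enpp6 had -0.46 ± 0.16, adjusted p = 0.0515 in limma, and Ugt8a -0.55 ± 0.19, adjusted p = 0.0603. Olig2 had 0.26 ± 0.12, adjusted p = 0.189. Outside the 34, Edil3 (1 of 29 mature genes) and Rras2 (1 of 11 early genes) fell, and Cspg4, the proteoglycan of progenitors (1 of 8 markers), rose with 0.41 ± 0.11, adjusted p = 0.0116. Aldoc and Fgfr3 of 8 astrocyte markers, Csf1r of 7 microglial and Flt1 of 8 vascular markers rose too, and the part of these cells in the change of the members was not tested. Without HT vehicle female replicate 1 and HT lithium female replicate 5, the libraries that stand apart in choroid plexus and mitochondrial genes, the count stayed at 2. It was 1 without HT lithium female replicate 2 or 3, HT lithium male replicate 1 or 2, HT vehicle female replicate 3 or 5 or any 1 of the 3 HT vehicle males, 4 without HT lithium female replicate 5, HT lithium male replicate 4 or HT vehicle female replicate 2 or 4, and 5 without HT lithium female replicate 1. With covariates for striatal and olfactory markers it was 7, and with array weights 9, where 7.42% and 9.57% of all genes were called as lower. Tspan2 lost its call after the GC and length correction (adjusted p = 0.0801). Pllp lost its call with edgeR (adjusted p = 0.0544), with only the compared groups in the fit (0.0587) and in 9 of the 17 fits that left out a library (up to 0.0975). The members' median was -0.16 with edgeR and -0.14 without HT lithium female replicate 2 or male replicate 1.

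The difference between the lithium effects of HT and WT was called in 0 members by limma and edgeR, where 0.0166% of all genes were called. An unadjusted p under 0.05 was reached by 2 members and by 1712 of the 18026 tested genes. Olig2 had a difference of 0.46 (95% confidence interval 0.12 to 0.79), adjusted p = 0.381, and Tspan2 of -0.47 (-0.89 to -0.05), adjusted p = 0.478. For Pllp the difference was -0.02 (-0.38 to 0.34). Within a sex, 2 members fell under lithium in WT males, where 2.3% of all genes were called and 0.793% as lower: Pllp with -0.60 ± 0.17, adjusted p = 0.037, and Car2 with -0.35 ± 0.10, adjusted p = 0.0357. Car2 had 2390, 2773, 2352, 1851 and 2393 normalised counts in WT lithium males and 3104, 2616, 2902, 3140 and 3139 in WT vehicle males, and 4 of the 5 treated mice lay below every vehicle mouse. In WT males Car2 lost its call with only the compared groups in the fit and after the GC and length correction, and Pllp in the former. The count in WT males was 0 without WT lithium male replicate 4 or 5 or WT vehicle male replicate 3, 4 or 5, 1 without WT lithium male replicate 3 or WT vehicle male replicate 1, and 4 without WT vehicle male replicate 2. In WT females, HT females and HT males 0 members were called by limma or edgeR under lithium (6.62%, 10.5% and 0.0166% of all genes). An unadjusted p under 0.05 was reached by 1, 4 and 5 members, and by 3588, 4362 and 1954 of the 18026 tested genes.

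**Figure D4:**
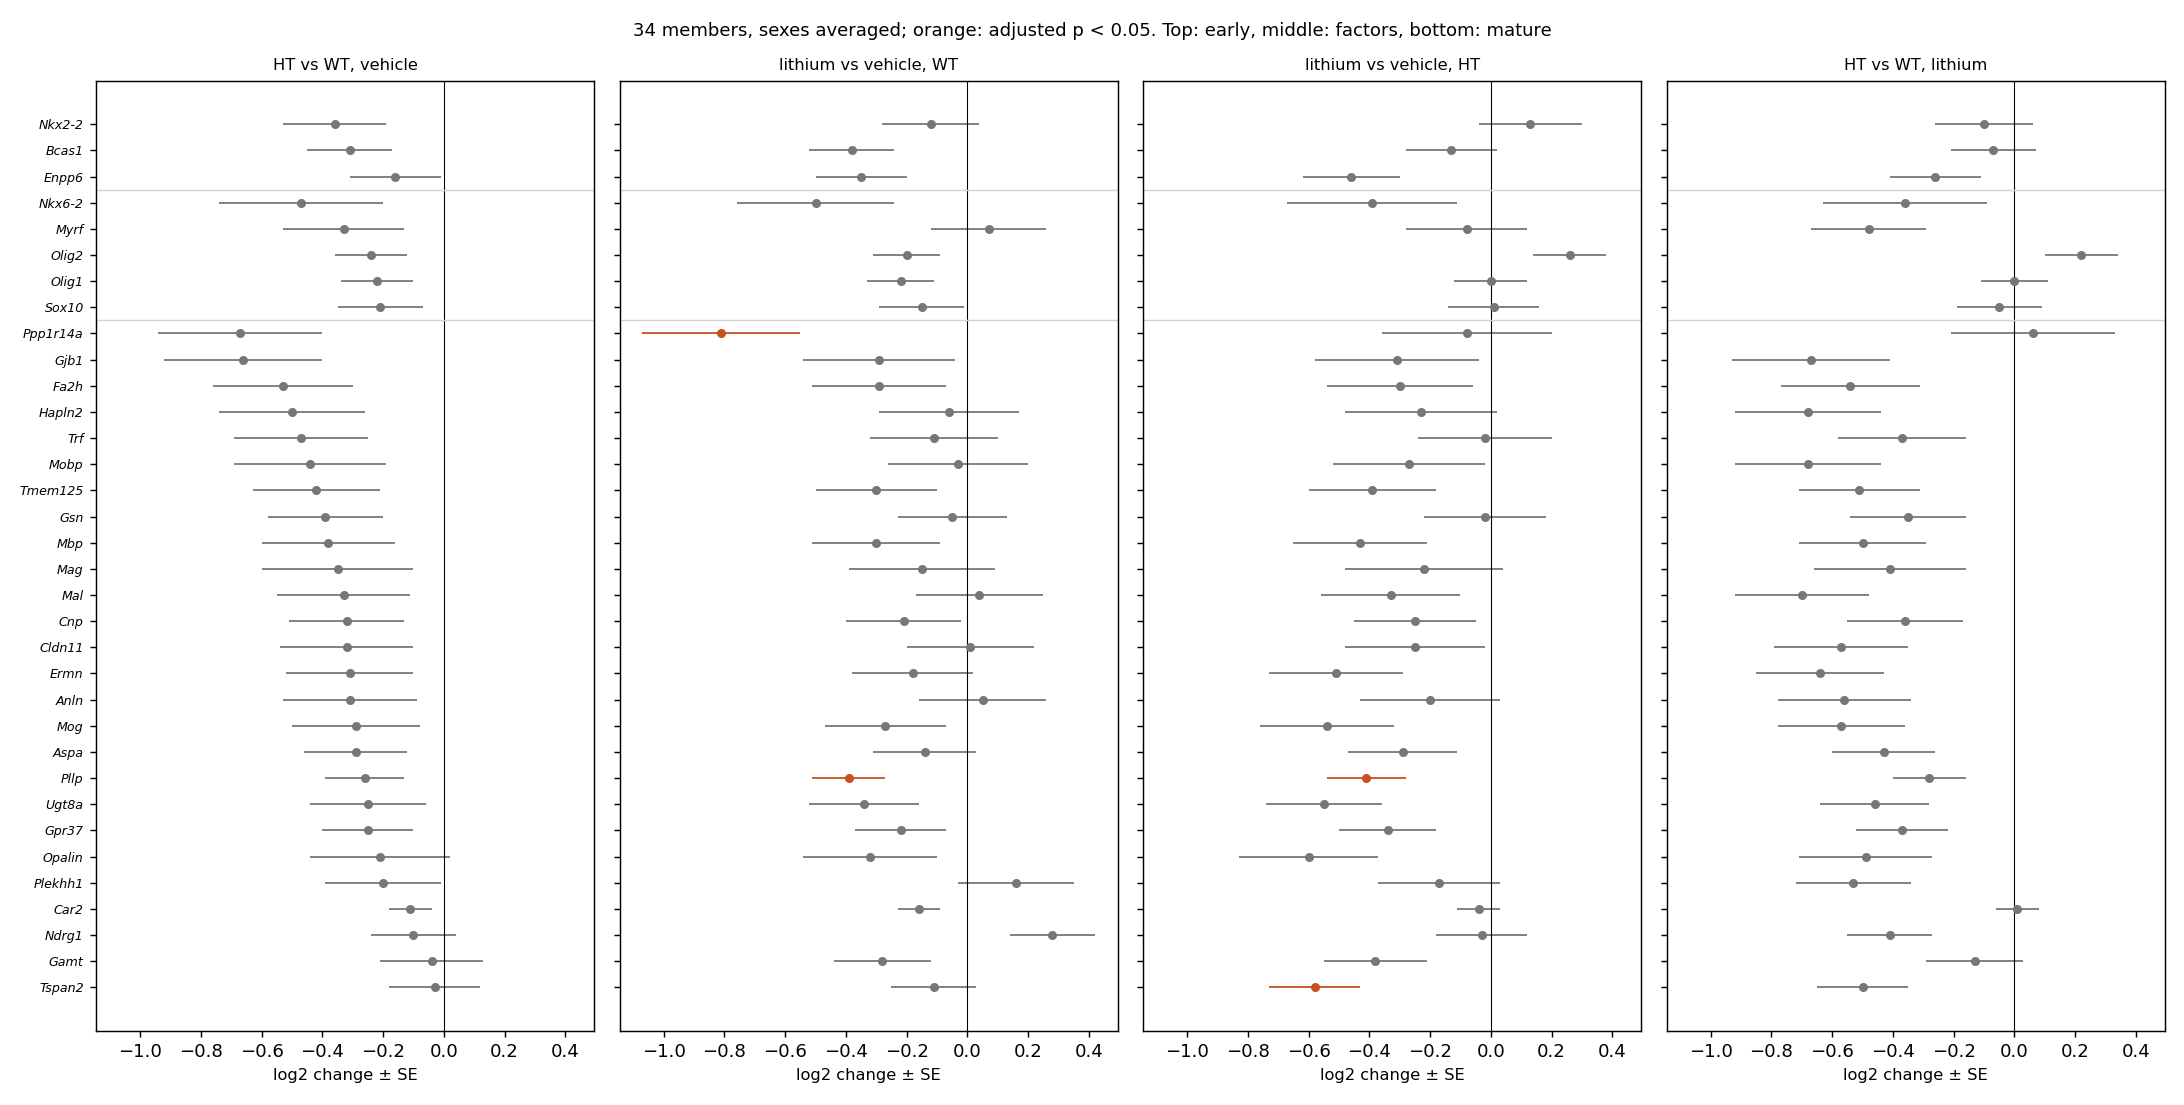
Log2 change ± SE (horizontal axes) of each of the 34 members for HT against WT under vehicle, lithium against vehicle in WT and in HT, and HT against WT under lithium (left to right), with the sexes averaged and called members in orange. All 34 estimates lie left of 0 under vehicle, from -0.67 to -0.03, but 0 are called there, and only Pllp, Ppp1r14a and Tspan2 are called in the other panels.

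The allele alone was compared in the vehicle mice. None of the 34 members was called by limma or edgeR in HT against WT with the sexes averaged, where 0% of all tested genes were called. All 34 estimates were negative, with a median of -0.31, and 11 had an unadjusted p under 0.05, beside 1119 of the 18026 tested genes. The 3 smallest p belonged to Gjb1 (-0.66 ± 0.26, adjusted p = 0.742 in limma), Ppp1r14a (-0.67 ± 0.27, adjusted p = 0.75) and Fa2h (-0.53 ± 0.23, adjusted p = 0.781). Gjb1 ran from 81.7 through 218 to 344 normalised counts in the 10 WT vehicle libraries. Mbp had 62703, 75330, 61210, 72504 and 70689 in WT vehicle females and 64115, 30431, 54004, 32816 and 62864 in HT vehicle females. In males it had 80077, 37446, 70434, 116779 and 80172 in WT and 62604, 65053 and 61328 in HT. In females 2 HT mice stood far below all others, and in males the 3 HT mice lay inside the WT range. The log2 difference of Mbp was -0.38 ± 0.22, adjusted p = 0.781. In females alone 9 members and in males alone 1 had an unadjusted p under 0.05, with 0 called by limma or edgeR in either (0% and 0.261% of all genes). Of the 18026 tested genes, 385 in females and 2248 in males had an unadjusted p under 0.05.

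Under lithium the median HT against WT difference was -0.42 over the members and -0.50 over the mature genes. An unadjusted p under 0.05 was reached by 20 members and by 1771 of the 18026 tested genes. No member was called by limma or edgeR, and 0% of all genes were. The smallest p belonged to Tspan2 (-0.50 ± 0.15, adjusted p = 0.268), Mal (-0.70 ± 0.22, adjusted p = 0.294) and Ermn (-0.64 ± 0.21, adjusted p = 0.323). With array weights, a fit that gives less weight to libraries far from their group, 6 members were called as lower, where 0.222% of all genes were. With striatal and olfactory covariates the median over the members was -0.22, with 0 called. Olig2 had 0.22 ± 0.12, adjusted p = 0.545, against the direction of the mature genes. Males and females, over all 6 genotype and drug groups, did not differ in any member by limma or edgeR (0.283% of all genes called). An unadjusted p under 0.05 was reached by 0 members and by 2321 of the 18026 tested genes. The median male minus female difference was 0.04 over the members. Of the 5 effects compared between the sexes, those of the allele under vehicle (0% of all genes), of lithium in WT (0%) and HT (0.172%) and of fluoxetine in HT (0.0277%) had 0 members called by limma or edgeR. In the same order, an unadjusted p under 0.05 was reached by 1, 3, 1 and 1 members, and by 1574, 1556, 1595 and 1194 of the 18026 tested genes. The lithium effect in WT was lower in males than in females in all 34 members, with a median difference of -0.43, and was not shown to differ in any.

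**Figure D5:**
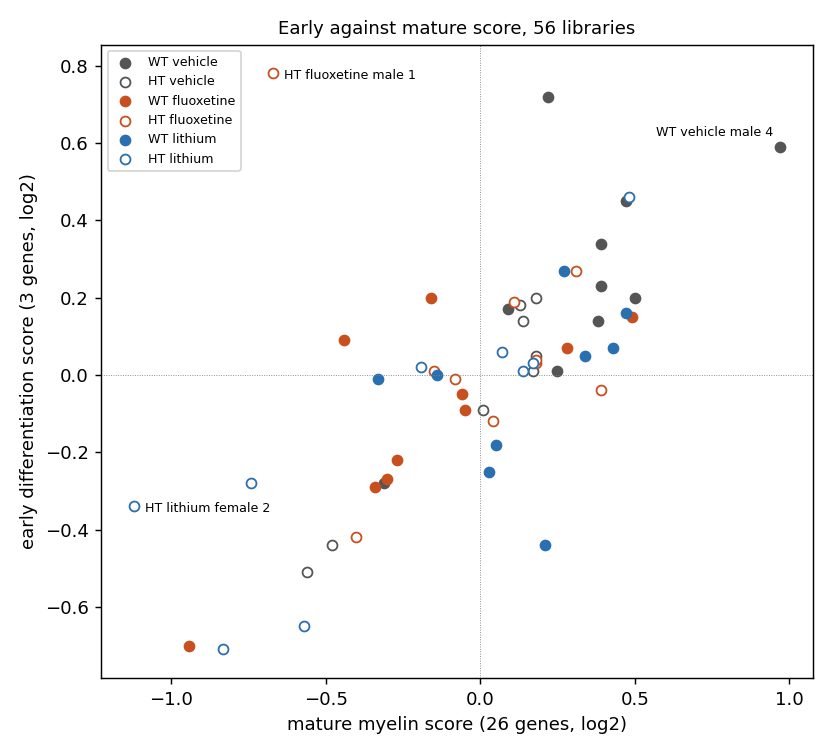
Early score (vertical axis, 3 genes) against mature score (horizontal axis, 26 genes), both in log2 units, for the 56 libraries, coloured by drug and filled for WT. HT fluoxetine male replicate 1 lies alone at the upper left with an early score of 0.78 and a mature score of -0.67.

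The 3 early members and the mature genes parted in single mice. HT fluoxetine male replicate 1 had the highest early score of the 56 libraries and ranked 52 in the mature score. Its Enpp6 was 766 normalised counts, against 490 to 550 in the other 4 mice of its group. Its Bcas1 was 3688, where the other 4 had 2222, 2547, 2144 and 1936. Nkx2-2 was 140, and the others of the group lay between 66.3 and 110. In the same library Opalin was 122, the lowest of all 56, while the rest of the group had 339, 496, 256 and 173. All 3 early members were thus at the top of their group and Opalin at its bottom. The other early genes, outside the members, did not set this mouse apart. Their score was 0.18, against 0.05 to 0.19 in the other 4 mice of the group. Among them Gpr17 was 3795 against 2966 to 3867, and Tcf7l2 was 137 against 108 to 173. The reverse was seen in WT lithium male replicate 4, with an early score of -0.44, rank 51, and a mature score of 0.21, rank 18. HT lithium female replicate 5, which stood apart in its low share of mitochondrially encoded genes, was the highest of the 56 in Bcas1 (3691) and Nkx2-2 (152) and ranked 4 in both scores. By groups, the early score averaged 0.25 ± 0.32 (SD, n = 5) in HT fluoxetine males, and 0.12 ± 0.14 (SD, n = 4) without replicate 1, beside 0.14 ± 0.08 (SD, n = 3) in HT vehicle males. HT lithium males had the lowest mean of the 12 groups with -0.32 ± 0.42 (SD, n = 4). It was 0.28 ± 0.27 in vehicle and -0.08 ± 0.36 in fluoxetine females of WT (SD, n = 5 each), and the groups overlapped.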

How the data were processed

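Values were signal values deposited by the authors as 1 table: gene counts divided by a size factor per library. Per the submitters' processing notes the tools were Salmon 0.11.2, R 3.6.0 and DESeq2 1.19.11 and the genome build GRCm38; other settings are not given in the sources used here. Whole reads were recovered from the steps of the values (100% whole within 1e-06), giving 22984556 to 35969254 reads per library. Of 57 labelled samples 56 had a column; WT lithium female replicate 5 and 3 columns that matched no sample were not analysed here. Symbols, lengths and GC content came from GENCODE vM21 (18077 genes), promoter windows from RefSeq.

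The test was limma-trend (limma 3.58.1, R 4.3.3) on log2(value + 1), so a fold is on that scale and understates changes of low genes. Genes reaching 10 in 3 or more libraries were kept (18026). All 12 groups entered 1 fit (44 residual degrees of freedom) with 25 comparisons, Benjamini-Hochberg adjustment over all tested genes in each, and calls at an adjusted p below 0.05. In the sex-averaged comparisons females and males had equal weight. Called members are named, up to 8 by smallest p (4 within a sex or for a difference), or the 3 with the smallest p where none was called; other members are given as values. Of the other lists up to 5 called genes are named, and of the 10 genes most like the mature score 8; some genes these rules would name are not reported here. The members and lists were chosen with earlier results of these data known. edgeR 4.0.16 (quasi-likelihood test on recovered reads, TMM) and 7 other settings were run besides leaving out each library, and 2 were chosen after seeing the data: a GC and length correction, and leaving out 2 libraries that stand apart. The limma code was tested on simulated data.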

Additional observations from a re-analysis of the deposited data

Results flagged for a closer look

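Of 198 groups of 4 or 5 libraries tested, over single members and scores, 12 (6.06%) had 1 library far from the others; chance flags about 1 in 20 groups, and the flags are given as values. All single-gene values are normalised counts. In WT fluoxetine male replicate 2, Mobp was 20933 against 10372 to 12515 in the other libraries of the group, and Bcas1 was 3063 against 1763 to 2008. In WT fluoxetine female replicate 3, Opalin was 413 against 128 to 210. WT fluoxetine female replicate 5 had an early score of -0.7 against -0.05 to 0.2 and a transcription factor score of -0.47 against 0.13 to 0.37.

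Olig2 stood high in 1 library of each lithium female group, with 897 in HT lithium female replicate 1 against 518 to 588, and 823 in WT lithium female replicate 1 against 537 to 576. Myrf was 685 in WT lithium female replicate 3 against 1133 to 1203. In HT lithium female replicate 5, Bcas1 was 3691 against 1547 to 1968 and Nkx2-2 was 152, above the other 4 libraries of the group, the lowest of which had 82.6. Enpp6 was 766 in HT fluoxetine male replicate 1 against 490 to 550, and Ugt8a was 1447 in HT fluoxetine female replicate 2 against 2156 to 2369.

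The effect of fluoxetine on Olig2 in WT mice differed between the sexes by -0.72 on the log2 scale (male minus female, adjusted p = 0.0349 in limma). In this comparison 7.74% of all genes were called and 3.16% as lower, and 1 of 34 members does not exceed that share. Olig2 lost this call with only the compared groups in the fit (adjusted p = 0.071), after the GC and length correction (adjusted p = 0.28) and in 10 of 20 fits that left out a library, and other settings called 2 to 4 members in this comparison.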

How the results depend on the processing

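The members' median log2 change was followed in the 7 comparisons with the sexes averaged, where it moved by less than the spread of their score between replicates (SD 0.35). It moved by over 1.5 times for lithium in WT (-0.19 to -0.3 with covariates), lithium in HT (-0.26 to -0.16 with edgeR), HT against WT under lithium (-0.42 to -0.22 with covariates) and fluoxetine in HT (0.02, between -0.02 and 0.1). The 742 alternative values of 29 single-gene results were all negative. These results were picked as called lower in the same data, and many of the fits drop only 1 library. A change of sign was thus unlikely beforehand, and the shared sign is no separate support. Counts of called members moved as follows. With edgeR, lithium in HT gave 1 and the sex difference of fluoxetine in WT 2. With only the compared groups in the fit, fluoxetine gave 7 in WT, 1 in WT females and 0 in WT males, and lithium 1 in HT (Tspan2), 0 in WT males and 1 in WT females (Ndrg1, as higher). With striatal and olfactory covariates, lithium gave 6 in WT, 7 in HT, 8 in WT males and 1 in HT females, and fluoxetine 4 in WT males and 3 for the sex difference. With array weights, lithium gave 4 in WT, 9 in HT, 6 in WT males, 5 in HT females and 2 in HT males, fluoxetine 6 in WT males and 4 for the sex difference, HT against WT under lithium 6, and males against females 1. After the GC and length correction, lithium gave 1 in HT and 1 in WT males (Pllp in both), and fluoxetine 1 in WT females (Tspan2), 1 in WT males (Pllp) and 0 for the sex difference. The cause was not tested. The share of all genes called moved with the setting too, as given above for several of these fits. These counts therefore describe the settings and are not read as results about the members. TMM factors, no filter, a pseudocount of 5 and leaving out the 2 libraries apart moved no count by over 1.5 times.

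With 1 library left out, the count ran from 6 to 14 for fluoxetine in WT, from 5 to 11 in WT females, from 0 to 4 in WT males and from 0 to 4 for their difference. For lithium it ran from 0 to 4 in WT, from 0 to 4 in WT males, from 1 to 5 in HT and from 0 to 1 in HT females, where it was 1 without lithium replicate 1 or 5. The share of all genes called in each of these fits is not given here, so the ranges describe the counts alone. Replicate numbers do not pair the mice: over 43 same-numbered pairs the deviations had correlations from -0.33 to 0.45 with a mean of 0. With the replicate block, lithium in HT females gave 1 and no other count moved by over 1.5 times. The effect of depth was not tested; the lowest value of any member was 26.2 normalised counts (Ppp1r14a), where counting error is largest. Groups of 3 to 5 libraries limit the comparisons within a sex.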
